A study of Mus musculus with 12 samples.

Results

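Matrix metalloproteinases (Mmp), their tissue inhibitors (Timp) and the ADAMTS proteases, which carry thrombospondin repeats, were followed in the lungs of 12 mice. The members were all genes whose array name was Mmp, Timp or Adamts with a number. Of 43 such genes on the array, 34 were kept because a probe was detected well above background on 4 or more arrays out of 12, among 19824 genes tested. They were 16 of 21 Mmp genes, 4 of 4 Timp genes and 14 of 18 Adamts genes. Mmp1a, Mmp7, Mmp10, Mmp20, Mmp21, Adamts13, Adamts16 and Adamts20 were well above background on 0 arrays and Adamts12 on 1, so no value is given for them. Of the 34 genes, 30 were well above background on all 12 arrays; the exceptions were Adamts4, Adamts18, Adamts19 and Mmp25.

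Metalloproteinases cut collagens, elastin, laminins and proteoglycans of the extracellular matrix, and also shed or activate cytokines and growth factors. Most are made as inactive proenzymes, so RNA is a step away from activity. TIMPs block the active site, and the balance between proteases and inhibitors is a classic subject of work on smoke-induced emphysema. ADAMTS proteases process procollagen and cleave large proteoglycans such as versican and aggrecan.

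Whole-lung RNA was hybridised to single-colour Agilent arrays, 1 mouse each. The groups were wild-type (WT) C57Bl/6 mice in room air, WT mice in cigarette smoke, and Rora mutant mice in cigarette smoke, with n = 4 each. All were labelled male with an age of 12 weeks. Smoke came from a smoking machine on 5 days a week for 4 months, a span longer than 12 weeks, so that age cannot be the one at the end. The labels do not say which Rora allele the mutants carried or on how much of the genome they differed from WT. Mutants in room air were not analysed here, so genotype and its interaction with smoke cannot be told apart. The labels call the arrays of a group biological replicates.

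Levels are log2 units over the array's own 75th percentile, and they are compared between groups for 1 probe at a time, not between genes. To pass, a gene needed a p under 0.05 in a two-sided limma fit after Benjamini-Hochberg adjustment for all 19824 genes. Between 70.06% and 74.82% of spots were well above background on each array. Rora, the mutated nuclear receptor gene, read 1.18 ± 0.04 (SD, n = 4) in WT smoke and -1.01 ± 0.10 in mutant smoke, a fall of 2.20 ± 0.06 (SE) log2 units with an adjusted p of 1.16e-09. The room-air arrays carried other sex-linked signal than both smoke groups: Xist read 4.04 ± 0.07 in room air against -5.39 ± 2.08 in WT smoke, and the Y chromosome genes Uty, Kdm5d and Ddx3y were detected above background on 0 of the 4 arrays in room air. A further Y-linked gene, Eif2s3y, was detected on 2 of these arrays, with a group level of -6.93 ± 1.57 against 1.45 ± 0.07 in WT smoke. High Xist without these Y-linked signals goes against the label of male for the room-air mice. Sex and exposure therefore cannot be told apart in either comparison with room air, while the 2 smoke groups did not differ in this way. In whole lung, fewer cells of a type and less RNA per cell cannot be told apart.

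Genotype was compared within smoke exposure. In mutant smoke against WT smoke, the stromelysin Mmp3, the gelatinase Mmp9 and the inhibitor Timp2 fell, and the membrane-type protease Mmp16 rose. These were 4 of 34 members, or 11.8%, where 6.05% of all genes passed. For higher genes the background was 2.48% and for lower genes 3.57%. The other 30 members did not pass; 13 of the 34 had an unadjusted p under 0.05. For 10 members the arrays of the 2 groups did not overlap, or 29.4%, against 13.4% of all genes. Adamts4 is among these 10, although it met the filter on detection only through the mutant arrays. The median log2 difference of the 34 members was 0.11, and that of all genes was 0.00.

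**Figure D1:**
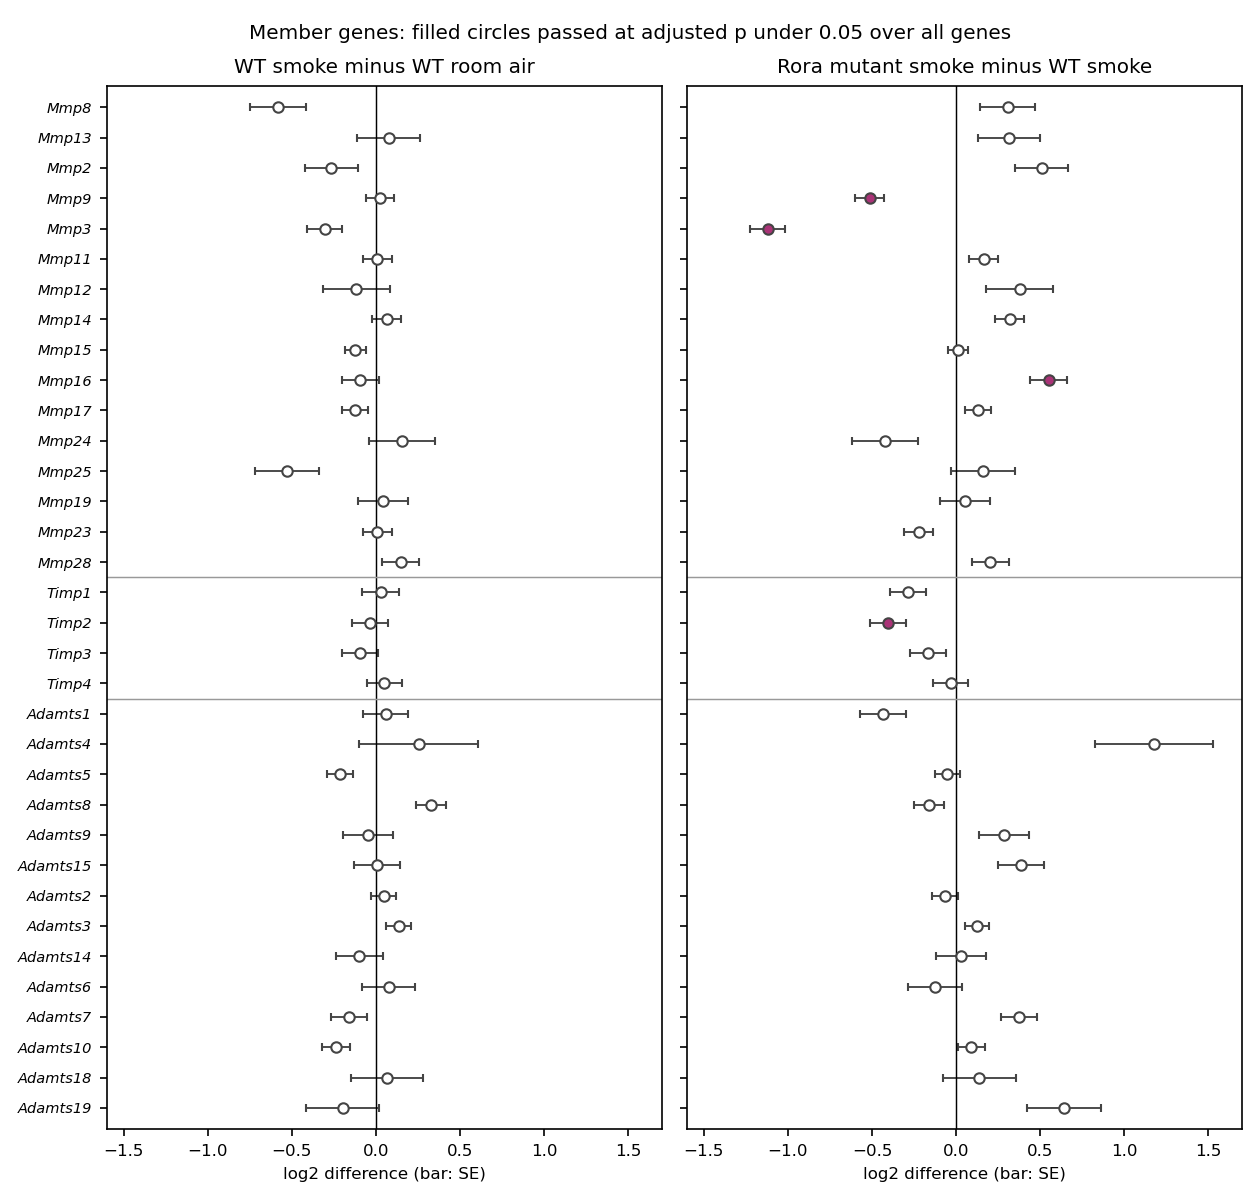
The log2 difference (x axis, bar ± SE) is drawn for the 34 member genes (y axis, grouped by role) in WT smoke minus WT room air (left) and Rora mutant smoke minus WT smoke (right); filled circles passed at an adjusted p under 0.05. No circle is filled on the left, and Mmp3, Mmp9, Timp2 and Mmp16 are filled on the right.

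Mmp3, or stromelysin-1, degrades proteoglycans, laminin and fibronectin and activates other proenzymes of the family. It gave the largest fall among the members. It read 1.22, 1.5, 1.35 and 1.41 on room-air replicates 1 to 4, 1.05, 0.95, 1.13 and 1.14 on the WT smoke replicates, and -0.29, 0.14, 0.13 and -0.20 on the mutant smoke replicates. Every mutant array lay below every WT array, and the 3 groups did not overlap with each other at any point. The mutant mean fell by 1.12 ± 0.10 (SE) log2 units from that of WT smoke, which was 2.17-fold higher (limma adjusted p = 0.000189). Within the 3 slides, each with 1 or 2 arrays of a group, this difference was -1.33, -0.91 and -1.16. The difference passed under all 21 other settings tried, from -1.18 to -1.04. Against room air the mutants fell by 1.42 ± 0.10 (adjusted p = 1.03e-05). WT smoke minus room air was -0.30 ± 0.10 and did not pass (adjusted p = 0.131).

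**Figure D2:**
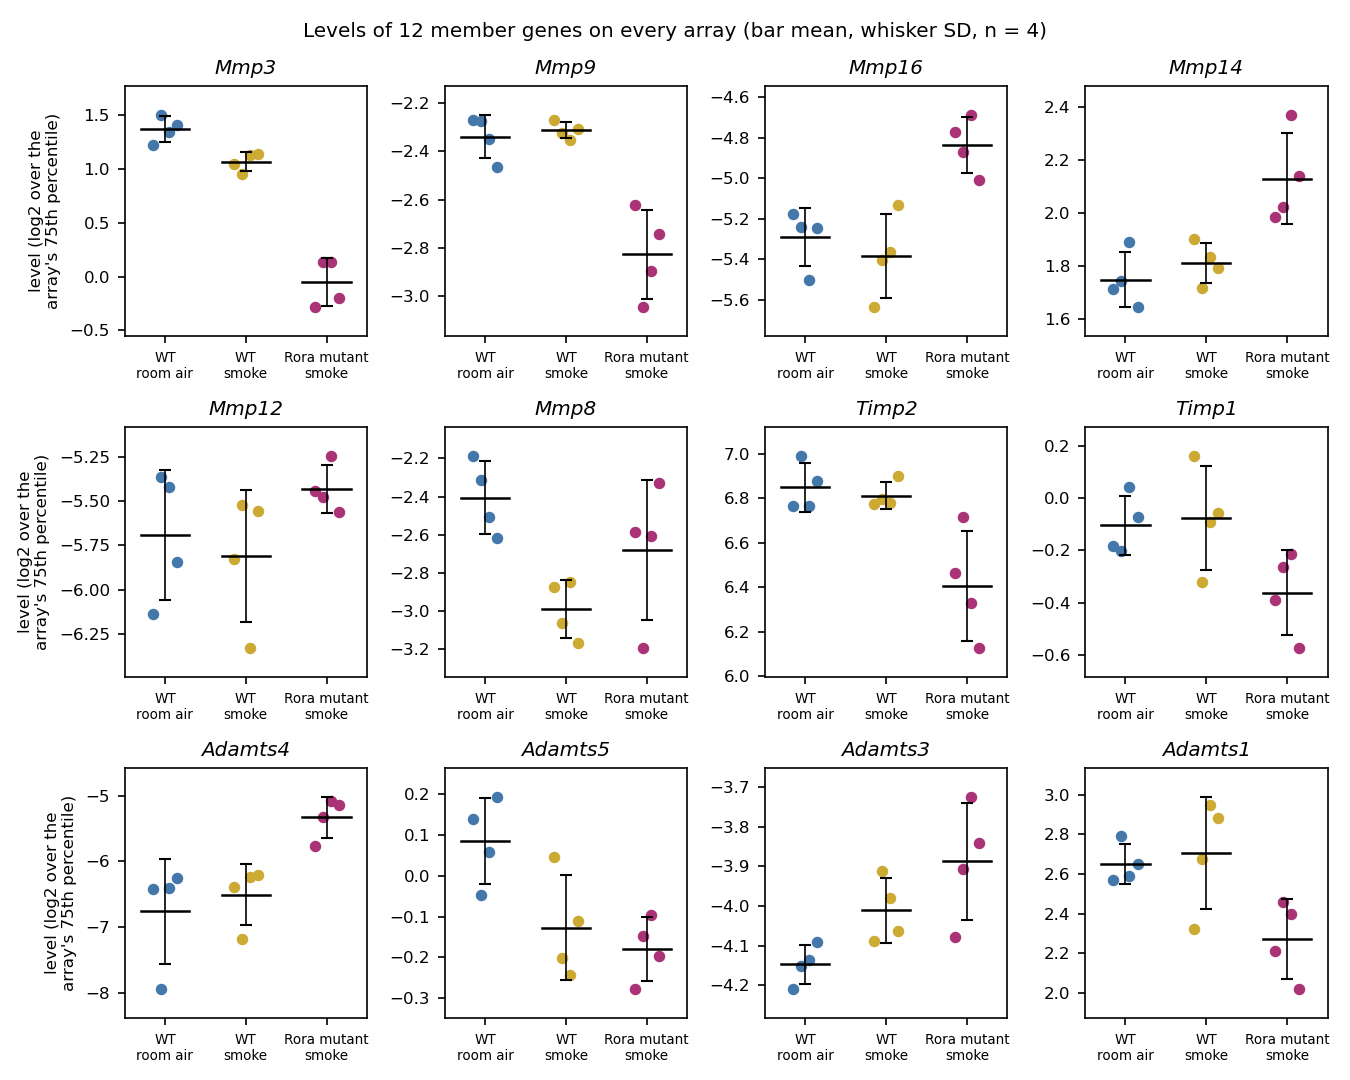
Levels (y axis, log2 over the array's 75th percentile) of 12 member genes on every array of the 3 groups (x axis, n = 4); points are arrays, the bar is the mean and the whisker the SD. Each panel has its own scale. Mmp3, Mmp9 and Timp2 are lower on every mutant array than on every WT array, and Mmp16 and Mmp14 are higher.

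Mmp3 lies in a row of metalloproteinase genes on chromosome 9. In the files' coordinates (mouse build mm8) its probe is at chr9:7455751-7455810, with the probe of Mmp12 100.94 kb, that of Mmp8 112.49 kb and that of Mmp13 172.99 kb away. Rora is on the same chromosome, with its nearest probe 61.722 Mb from Mmp3. The member nearest to Rora was Adamts7, at 20.813 Mb, so 0 members lay within 20 Mb of Rora. The 4 measured neighbours are shown because only Mmp3 among them passed: the 250 bases before each start site (RefSeq, GRCm38.p6, plus strand), 5′ to 3′. They cover chr9:7445572-7445821 for Mmp3, chr9:7347124-7347373 for the Mmp12 start that holds a match, chr9:7272264-7272513 for Mmp13 and chr9:7558179-7558428 for Mmp8. Capitals mark AP-1 letters (TGACTCA, or TGAGTCA on the other strand) and the ROR half-site (AGGTCA, or TGACCT on the other strand). AP-1 is the Fos and Jun dimer long studied at metalloproteinase promoters, and the ROR half-site is the core of the element that RORA binds.
Mmp3: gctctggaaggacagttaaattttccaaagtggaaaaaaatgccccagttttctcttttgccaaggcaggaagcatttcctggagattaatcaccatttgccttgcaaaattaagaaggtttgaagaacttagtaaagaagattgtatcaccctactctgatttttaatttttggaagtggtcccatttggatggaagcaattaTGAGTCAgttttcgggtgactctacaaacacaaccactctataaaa
Mmp12: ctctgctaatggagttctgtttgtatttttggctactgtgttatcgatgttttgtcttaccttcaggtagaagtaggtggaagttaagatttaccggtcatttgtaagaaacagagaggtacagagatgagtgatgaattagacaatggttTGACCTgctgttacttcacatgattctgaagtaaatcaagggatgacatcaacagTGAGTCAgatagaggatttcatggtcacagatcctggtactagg
Mmp13: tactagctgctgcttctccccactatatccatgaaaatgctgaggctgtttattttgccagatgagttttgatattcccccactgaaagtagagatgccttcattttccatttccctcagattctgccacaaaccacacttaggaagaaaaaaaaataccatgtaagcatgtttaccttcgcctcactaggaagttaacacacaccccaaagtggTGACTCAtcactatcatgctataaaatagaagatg
Mmp8: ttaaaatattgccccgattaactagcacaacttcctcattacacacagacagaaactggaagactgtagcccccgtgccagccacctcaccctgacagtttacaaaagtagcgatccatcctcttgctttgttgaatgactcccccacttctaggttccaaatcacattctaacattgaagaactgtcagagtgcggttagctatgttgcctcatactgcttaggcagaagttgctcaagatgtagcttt

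Mmp3, Mmp12 and Mmp13 each held AP-1 letters, starting 46, 44 and 35 bases before the start site, and Mmp8 held none. These were the 3 members with AP-1 letters among 21 matched in the RefSeq promoter table (windows of 250 bases before to 50 after each start), against 5.95% of all 27025 genes there. The 3 are neighbours in the same row of genes, so they do not count as independent matches. The other Mmp12 start, with a window from chr9:7344147, held 0 AP-1 and 0 ROR half-site matches. Mmp12 was the 1 member of 21 with a ROR half-site, 99 bases before the start, against 18.1% of genes. Mmp3 held none, and Mmp9 and Mmp16 were not among the matched genes. The aryl hydrocarbon receptor core GCGTG (or CACGC) was in 9 of the 21 member promoters, Timp1, Timp2 and Timp3 among them, against 35.2% of genes. The antioxidant response letters TGACNNNGC (or GCNNNGTCA), which can overlap an AP-1 match, were in 5 of the 21 against 13.99%. A match describes these letters and is not a measured binding site.

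The neighbours of Mmp3 on chromosome 9 did not pass in any comparison. Mmp12, the macrophage elastase that mice need to develop smoke emphysema, read -6.14, -5.36, -5.42 and -5.84 in room air, -5.83, -5.52, -6.33 and -5.55 in WT smoke and -5.44, -5.48, -5.24 and -5.56 in mutant smoke. The 3 groups overlapped. WT smoke minus room air was -0.12 ± 0.20 (95% interval -0.55 to 0.32, adjusted p = 0.824), and mutant minus WT smoke was 0.38 ± 0.20 (-0.06 to 0.82, adjusted p = 0.306). Within the slides the smoke difference was 0.16, -0.17 and -0.91. Of 12 alveolar macrophage markers, 7 were higher in mutant than in WT smoke, with a median of 0.54 and a mean level of 1.57 to 1.92 against 1.19 to 1.38; in WT smoke against room air 3 were higher and 1 lower. Their part in the Mmp12 values was not tested.

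Collagenases cut the triple helix of fibrillar collagen. Mmp8, the neutrophil collagenase, read -2.19, -2.31, -2.50 and -2.62 in room air, -2.88, -3.06, -2.84 and -3.17 in WT smoke and -2.59, -3.20, -2.61 and -2.33 in mutant smoke. Every WT smoke array lay below every room-air array, and the mutants overlapped both groups. The difference of WT smoke from room air was -0.58 ± 0.16, the lowest of the 34 members, and did not pass (adjusted p = 0.0704). Mutant minus WT smoke was 0.31 ± 0.16 (adjusted p = 0.312). Mmp13, collagenase-3, had differences of 0.08, 0.31 and 0.39 for WT smoke against room air, mutant against WT smoke and mutant smoke against room air, and none passed.

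Gelatinases digest denatured collagen and basement membrane collagen IV. Mmp9, gelatinase B, is stored in neutrophils and made by macrophages. Its probe (chr2:164646008-164646067, mm8) read -2.27, -2.27, -2.35 and -2.46 in room air, -2.27, -2.32, -2.35 and -2.31 in WT smoke and -2.62, -3.05, -2.90 and -2.74 in mutant smoke. The WT groups overlapped, and every mutant array lay below both. The mutants fell by 0.51 ± 0.08 against WT smoke (WT smoke 1.43-fold higher, limma adjusted p = 0.00626) and by 0.49 ± 0.08 against room air (adjusted p = 0.00271). WT smoke minus room air was 0.03 ± 0.08 (95% interval -0.16 to 0.21). Within the slides the mutant difference from WT smoke was -0.35, -0.73 and -0.47. A second Mmp9 probe gave -0.49 ± 0.16 (adjusted p = 0.106 over all probes). With the spot means corrected by normexp instead of the scanner's processed signal, the Mmp9 difference turned to 0.09 (adjusted p = 0.858).

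Neutrophil markers are given beside Mmp8 and Mmp9. Of 7 measured, 0 passed in limma between mutant and WT smoke (2 had an unadjusted p under 0.05); their median was -0.35 and their mean level ran from -2.83 to -2.19 in mutants against -2.20 to -2.01 in WT smoke. In WT smoke against room air 0 of 7 passed, and 0 had an unadjusted p under 0.05, with a median of 0.08. The part of neutrophils in the Mmp9 and Mmp8 values was not tested. Lcn2, whose human counterpart binds MMP9 and protects it from degradation, fell by 0.64 ± 0.16 in WT smoke against room air (adjusted p = 0.0458) and was at 0.58 ± 0.16 in mutant against WT smoke (adjusted p = 0.0584).

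Mmp2, gelatinase A, is made mainly by mesenchymal cells. It read 0.66, 0.86, 0.53 and 0.52 in room air, 0.17, 0.47, 0.41 and 0.46 in WT smoke and 0.80, 1.41, 0.80 and 0.54 in mutant smoke. Every WT smoke array lay below every array of the other groups. The mutants were 0.51 ± 0.16 above WT smoke without passing (adjusted p = 0.0836), and WT smoke minus room air was -0.26 ± 0.16 (adjusted p = 0.418). With the slide as a block the mutant difference was 0.60 and passed.

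Membrane-type metalloproteinases are anchored at the cell surface, where Mmp14 and Timp2 together activate the Mmp2 proenzyme. Mmp16, or MT3-MMP, rose in the mutants by the 1 probe kept of its 2. The other probe was well above background on 0 arrays, so the rise rests on a single probe. The kept probe (chr4:18044343-18044402, mm8) read -5.18, -5.24, -5.50 and -5.25 in room air, -5.64, -5.40, -5.36 and -5.13 in WT smoke and -4.77, -4.87, -4.69 and -5.01 in mutant smoke. Every mutant array lay above every WT array. The mutants were 0.55 ± 0.11 higher than WT smoke, or 1.46-fold (limma adjusted p = 0.0167), and 0.46 ± 0.11 higher than room air (adjusted p = 0.0163). Within the slides the difference from WT smoke was 0.87, 0.39 and 0.52. Under normexp it was 0.64 and did not pass (adjusted p = 0.623).

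Mmp14, or MT1-MMP, cleaves collagen at the cell surface. It read 1.71, 1.74, 1.89 and 1.64 in room air, 1.90, 1.72, 1.83 and 1.79 in WT smoke and 1.99, 2.02, 2.37 and 2.14 in mutant smoke. Every mutant array lay above every WT array here too. Mmp14 rose by 0.38 ± 0.09 in mutant smoke against room air (1.30-fold, limma adjusted p = 0.0118). Against WT smoke the difference of 0.32 ± 0.09 did not pass by the brightest probe (adjusted p = 0.0525), while its other probe gave 0.29 ± 0.05 and passed (adjusted p = 0.00916 over all probes). Of the other membrane-type genes, Mmp15, Mmp17, Mmp24 and Mmp25 did not pass in any comparison. Mmp25, the leukolysin of neutrophils, was well above background on 3 of 4 arrays in room air, 1 in WT smoke and 3 in the mutants. Its fitted difference of -0.53 ± 0.19 in WT smoke against room air (adjusted p = 0.154) thus rests on 1 measured WT smoke array and is not a measured size.

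**Figure D3:**
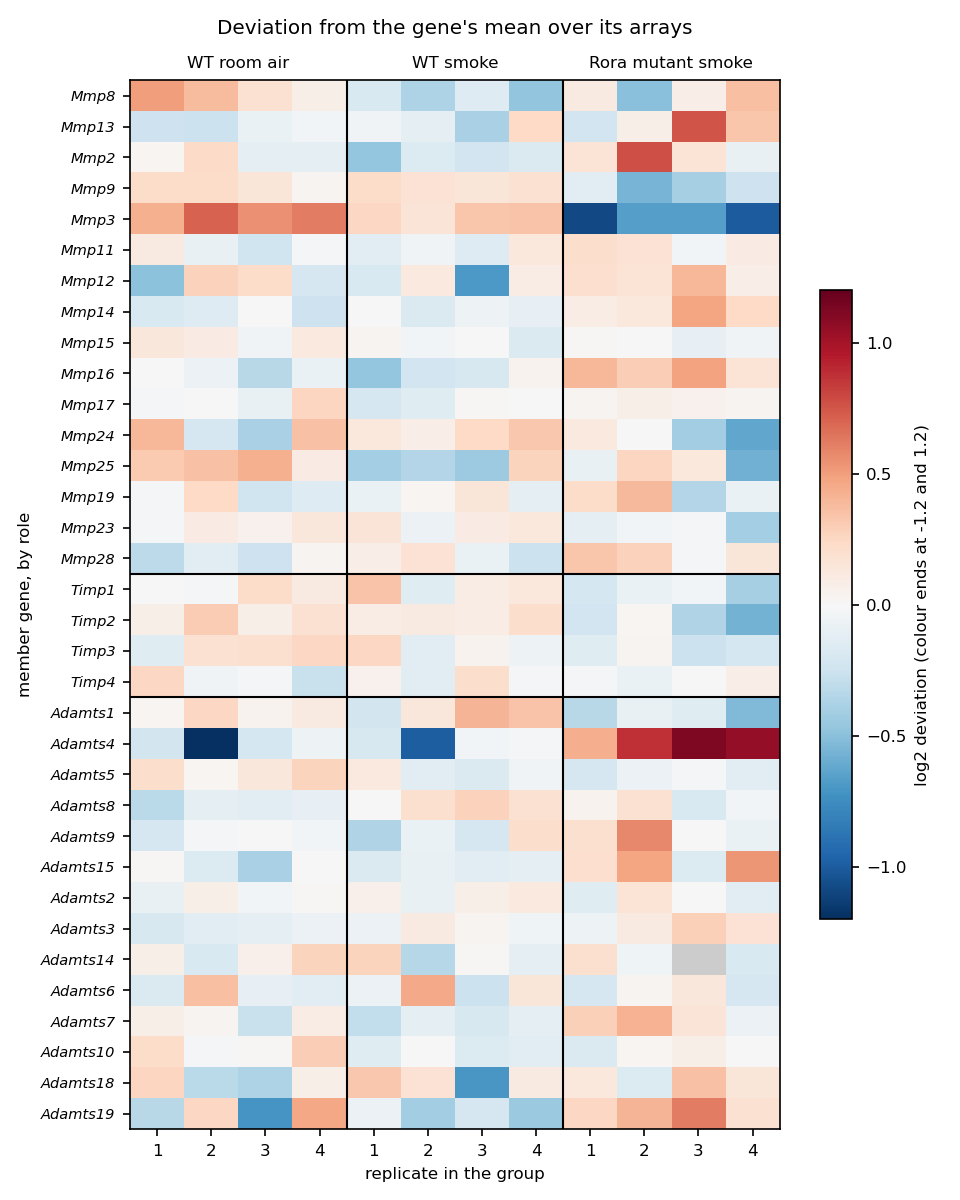
Each cell is the log2 deviation of an array (x axis, replicate within its group) from the gene's own mean over its arrays, for the 34 member genes (y axis, by role); red is higher, blue lower, grey not valued, and the colour ends at -1.2 and 1.2. Mmp3 is blue on the 4 mutant arrays and red on the 4 room-air arrays, and Adamts4 is red on the 4 mutant arrays.

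The 4 TIMPs all had a negative mutant difference from WT smoke, of which Timp2 passed. Timp2 read 6.76, 6.99, 6.76 and 6.88 in room air, 6.78, 6.80, 6.78 and 6.90 in WT smoke and 6.46, 6.71, 6.33 and 6.12 in mutant smoke (probe chr11:118117922-118117981, mm8). Every mutant array lay below every WT array, replicate 2 by the smallest step. The mutants fell by 0.40 ± 0.11 against WT smoke (limma adjusted p = 0.0469), a call lost under 18 of 21 other settings, where the difference kept its sign from -0.55 to -0.31. Within the slides it was -0.31, -0.13 and -0.55. Against room air they fell by 0.44 ± 0.11 (adjusted p = 0.0163), a call lost under normexp alone.

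The other inhibitors did not pass in any comparison. Timp1, on the X chromosome and inducible by inflammation, read -0.18, -0.20, 0.04 and -0.07 in room air, 0.16, -0.32, -0.09 and -0.05 in WT smoke and -0.39, -0.26, -0.21 and -0.58 in mutant smoke. The mutants lay below every room-air array but overlapped WT smoke, from which they differed by -0.29 ± 0.11 (adjusted p = 0.15). Timp3, which is bound to the matrix and also inhibits ADAMTS proteases, read 5.84, 6.17, 6.17 and 6.23 in room air, 6.23, 5.85, 6.03 and 5.93 in WT smoke and 5.84, 6.02, 5.73 and 5.78 in mutant smoke. Its groups overlapped, and the mutant difference from WT smoke was -0.17 ± 0.11 (95% interval -0.40 to 0.06). Timp4 read -1.49, -1.78, -1.76 and -2.00 in room air, -1.68, -1.86, -1.52 and -1.75 in WT smoke and -1.75, -1.81, -1.73 and -1.66 in mutant smoke. Of the TIMPs it differed least, at -0.03 ± 0.10 between mutant and WT smoke (-0.26 to 0.19), and its sign changed with the arrays used.

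Aggrecanases of the ADAMTS family gave 0 calls in limma between the 2 smoke groups, as did all 14 Adamts genes, 5 of which had an unadjusted p under 0.05. Adamts4, or aggrecanase-1, cleaves aggrecan and versican. Its probe (chr1:173096215-173096274, mm8) read -6.42, -7.95, -6.41 and -6.25 in room air, -6.39, -7.18, -6.23 and -6.21 in WT smoke and -5.76, -5.32, -5.08 and -5.14 in mutant smoke. It was detected well above background on 0 of 4 arrays in room air, 1 of 4 in WT smoke and 4 of 4 in mutant smoke. For a rough bound, each room-air array was held at the lowest level of any probe well above background there. An Adamts4 reading above that level was kept as read. Mutant smoke was then 2.13-fold higher than room air. Brighter spots can still miss detection, as Mmp25 did at -5.97 on WT smoke replicate 4. The 2.13-fold value is therefore not a strict lower limit, and it was not tested. The limma call (adjusted p = 0.0177) came from a fitted difference of 1.43 ± 0.35. It used room-air values that were not well above background, so it is not a measured size. Without mutant replicate 4, and under normexp, that call was lost. Adamts4 met the filter on detection only through the mutant arrays, so its call and its lack of overlap describe these arrays and lend no support to the counts of members. Against WT smoke, measured above background on 1 array, the fitted difference of 1.18 ± 0.35 is not a measured size and did not pass (adjusted p = 0.075).

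Adamts5, or aggrecanase-2, read 0.14, -0.05, 0.06 and 0.19 in room air, 0.05, -0.20, -0.24 and -0.11 in WT smoke and -0.28, -0.15, -0.10 and -0.20 in mutant smoke. It fell by 0.27 ± 0.08 in mutant smoke against room air (adjusted p = 0.0343), a call lost under 10 of 21 other settings, and its other probe fell by 0.47 ± 0.08 (adjusted p = 0.00367 over all probes). The 2 smoke groups differed by -0.05 ± 0.08 (95% interval -0.22 to 0.11). Adamts1, a versicanase, lies beside Adamts5 on chromosome 16 and read 2.57, 2.79, 2.59 and 2.65 in room air, 2.32, 2.68, 2.95 and 2.88 in WT smoke and 2.21, 2.46, 2.40 and 2.02 in mutant smoke. The mutants overlapped WT smoke through WT replicate 1, and the difference of -0.44 ± 0.14 did not pass (adjusted p = 0.0848). Without that WT replicate it was -0.56 and passed, and the second Adamts1 probe passed on all arrays (-0.43 ± 0.11, adjusted p = 0.0397 over all probes).

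Procollagen N-proteinases remove the amino-terminal propeptide of fibrillar procollagens. Of these, Adamts3 read -4.21, -4.15, -4.14 and -4.09 in room air, -4.09, -3.91, -3.98 and -4.06 in WT smoke and -4.08, -3.91, -3.72 and -3.84 in mutant smoke. It rose by 0.26 ± 0.07 in mutant smoke against room air (limma adjusted p = 0.0328), with no overlap, and the call was lost under 10 of 21 other settings. Only 1 of the 3 Adamts3 probes was kept, and the others were well above background on 0 arrays. Adamts2 and Adamts14 did not pass, and neither difference between the smoke groups was over 0.07 in size by the representing probe; the Adamts14 value of mutant replicate 3 was an outlier spot and was left out of the fit.

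The remaining ADAMTS genes did not pass either. Adamts8, highly expressed in human lung, had the smallest adjusted p of the members in WT smoke against room air, 0.33 ± 0.09 (adjusted p = 0.0588), with no overlap of the groups. It read 1.79, 2.01, 1.99 and 2.02 in room air and 2.12, 2.31, 2.40 and 2.31 in WT smoke. Adamts15 lies beside Adamts8 on chromosome 9 and was at 0.01 ± 0.14 in the same comparison, and at 0.39 ± 0.14 in mutant smoke against room air (adjusted p = 0.0767). Adamts19 was at 0.64 ± 0.22 in mutant against WT smoke without overlap (adjusted p = 0.114), detected above background on 3 of 4 arrays in WT smoke. In mutant smoke against room air it was at 0.44 ± 0.22 (limma adjusted p = 0.196). Only 1 of the 3 Adamts19 probes was kept, and the others were well above background on 0 arrays. Adamts7, known to cleave the matrix protein COMP, was at 0.37 ± 0.11 in mutant against WT smoke (adjusted p = 0.064), again without overlap.

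The comparison of WT smoke with room air, which also differ in sex-linked signal, gave no call among the members. In WT smoke against room air 0 of 34 passed in limma, where 4.86% of all genes did, 2.31% higher and 2.55% lower; 6 of 34 had an unadjusted p under 0.05. The groups did not overlap for 5 members, or 14.7%, against 12.9% of all genes. Differences ran from -0.58 to 0.33 with a median of 0.01, beside -0.01 for all genes. Mutant smoke against room air, where genotype, exposure and sex-linked signal all differ, gave 8 of 34, or 23.5%, beside 16.7% of all genes. Mmp14, Mmp16, Adamts3 and Adamts4 were higher and Mmp3, Mmp9, Timp2 and Adamts5 lower, with backgrounds of 6.67% and 10.0%; 11 members, or 32.4%, did not overlap, against 21.0% of genes. Adamts4 is among both, kept through the mutant arrays alone. In the same comparison 9 of 12 alveolar macrophage markers were higher, 7 of 7 goblet cell markers lower with a median of -2.42, and 4 of 6 ciliated cell markers lower. Their part in the member values was not tested. The 3 comparisons share arrays, so their lists are not independent of each other.

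Spread within a group was small for most members. The median SD over the 34 genes was 0.15 for room air, 0.13 for WT smoke and 0.18 for the mutants, and 29, 26 and 25 genes had an SD under 0.25. The widest were Adamts4 in room air (0.80) and WT smoke (0.46) and Mmp13 in mutants (0.42).

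Different probes of a gene did not always move together. Of 14 members with several kept probes, the probes had the same sign in 9 between mutant and WT smoke, and differed in Adamts2, Adamts9, Adamts10, Adamts14 and Mmp28. Of 52 member probes 2 passed higher and 5 lower, where 5.83% of all 30191 probes passed. For mutant smoke against room air 5 passed higher and 9 lower (background 16.3%), and for WT smoke against room air 0 of 52 passed, 10 with an unadjusted p under 0.05 (background 4.07%). Among the 5 higher is the Adamts4 probe, which met the filter on detection only through the mutant arrays. Adamts10, which acts on fibrillin microfibrils, had 3 probes at 0.09 ± 0.08, -0.09 ± 0.08 and -0.65 ± 0.13 between mutant and WT smoke. The last passed (adjusted p = 0.018 over all probes) and was dimmer than the probe that represents the gene.

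**Figure D4:**
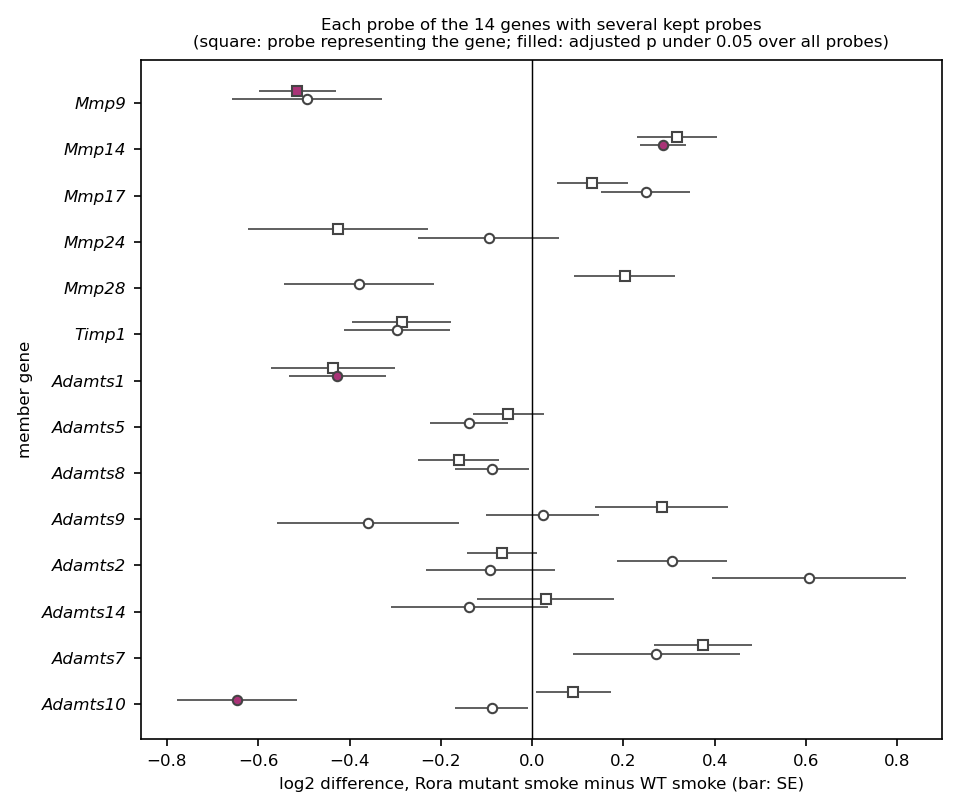
The log2 difference of Rora mutant smoke minus WT smoke (x axis, bar ± SE) is drawn for each kept probe of the 14 member genes with several (y axis); squares represent the gene, and filled symbols passed over all probes. The probes of Mmp9, Mmp14, Timp1 and Adamts1 lie close together, and 1 probe of Adamts10 lies at -0.65 apart from the other 2.

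Among 15 measured activators and cofactors of the family, 3 were higher and 0 lower in mutant than in WT smoke, with a list median of 0.15. Plat, the tissue plasminogen activator, whose product plasmin activates proenzymes, rose by 0.55 ± 0.08 (adjusted p = 0.00346). The mast cell chymase Cma1 and tryptase Tpsb2, which can activate Mmp proenzymes, rose by 0.75 ± 0.15 and 0.78 ± 0.20; Cma1 fell by 0.75 ± 0.15 in WT smoke against room air. Of 6 mast cell markers, 4 were higher in mutant than in WT smoke, with mean levels of -3.19 to -2.93 against -3.87 to -3.62. The part of mast cells in these values was not tested. In WT smoke, 1 of the 15 activators and 1 of the 6 mast cell markers were well above background on no array. For such a gene a fitted difference from WT smoke is not a measured size. Of 8 other inhibitors and clearance receptors, 0 passed between the smoke groups (2 at an unadjusted p under 0.05) at a median of -0.02, and Thbs1 rose by 0.64 ± 0.11 in WT smoke against room air.

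Of 16 transcription factors known at metalloproteinase promoters, 0 were higher and 1 lower in mutant than in WT smoke (list median -0.01). This was Junb, a subunit of AP-1, which fell by 1.00 ± 0.16 (adjusted p = 0.00592) after a rise of 0.66 ± 0.16 in WT smoke against room air (adjusted p = 0.0411). Fos was at -0.94 ± 0.41 between the smoke groups and did not pass, with an SD of 1.08 within WT smoke, and Jun was at 0.02 ± 0.06.

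Of 23 matrix substrates, 2 were higher and 1 lower between the smoke groups, with a median of 0.15. Eln, elastin, rose by 0.60 ± 0.11 (adjusted p = 0.0131) and the matrix adaptor Matn2 by 0.46 ± 0.07, while the collagen-binding Fmod fell by 0.45 ± 0.11. In mutant smoke against room air 4 were higher and 2 lower, Col4a1 (0.29), Col4a2 (0.34) and Lum (-0.72) among them. Of 6 ADAMTS-like proteins, which lack the protease domain, Adamtsl5 fell by 0.32 ± 0.08 between the smoke groups. Of 11 membrane-anchored ADAM proteases 0 passed there (5 at an unadjusted p under 0.05), and Adam33 fell by 0.53 ± 0.09 in WT smoke against room air. Of 11 fibroblast markers 2 were higher and 1 lower between the smoke groups, with mean levels of 3.00 to 3.40 against 3.08 to 3.23, and their part in the Mmp2, Mmp14 and matrix values was not tested.

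The tissue label was checked against markers: all 8 alveolar type 1, 9 alveolar type 2, 8 endothelial and 5 club cell markers were measured. Between the smoke groups, 3 of 7 goblet cell, 1 of 6 ciliated cell and 1 of 8 endothelial markers were lower, and 2 of 5 adipocyte markers were higher. None of the markers of the other lists passed there: monocyte or interstitial macrophage, T cell, B cell, smooth muscle, alveolar type 1 and 2, club cell, mesothelium, cartilage, cardiac muscle and erythroid. The cardiac muscle markers nonetheless did not overlap in mean level, 2.60 to 2.90 on the mutant arrays against 1.94 to 2.46 in WT smoke, with a median difference of 0.39 and an unadjusted p under 0.05 for 5 of 7. In WT smoke against room air 6 of 7 goblet cell markers were lower, by a median of -1.63. The part of these cells in the member values was not tested.

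**Figure D5:**
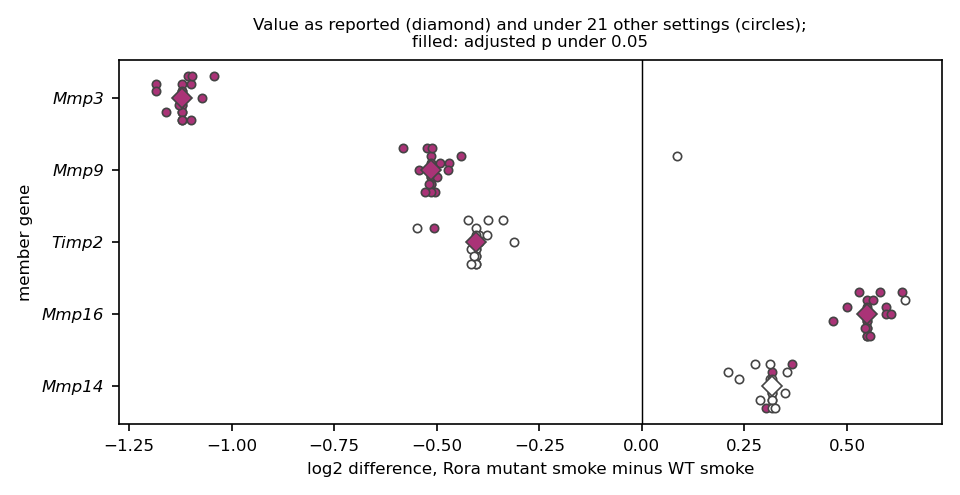
The log2 difference of Rora mutant smoke minus WT smoke (x axis) is drawn for 5 member genes (y axis) as reported (diamond) and under 21 other settings (circles); filled symbols passed. Mmp3 stays between -1.18 and -1.04 and passes throughout, Mmp9 has 1 value above 0 under normexp, and Timp2 passes under 3 other settings.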

How the data were processed

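Images were read with Agilent Feature Extraction (version 9.5.3.1), per the submitters' processing notes. The deposited processed signal is a linear intensity, background-subtracted within each array per the file headers, and the deposited spot mean and local background are uncorrected intensities. The scanner's flags are deposited as other values. A deposited table of log2 intensity from the authors, with the same median (6.79) in every column, was an alternative. Spots of a probe were averaged without outlier spots, and log2 processed signal minus the array's 75th percentile was used. Probes well above background on at least 4 of 12 arrays were kept (30191 of 41174), and the brightest kept probe represented a gene. One limma 3.58.1 model (data.table version 1.17.8, in R 4.3.3) with a mean per group was fitted on all 12 arrays, and it was tested on simulated data. The number of arrays limits the precision. The 12 arrays lay on 3 slides, each scanned once and holding all 3 groups. Alternatives were normexp background (offset 50), quantile normalization, the value table, other filters, the mean of probes, slide and replicate blocks, 2-group fits and leaving out each array. Figures used matplotlib 3.10.9 in Python 3.11.15. Members, gene lists and tests were chosen with earlier results of these data known. Values on every array are given for members called in a comparison and for Mmp2, Mmp8, Mmp12, Timp1, Timp3, Timp4 and Adamts1, and the 3 largest uncalled differences of each comparison are named. The 6 pathway and 19 cell type lists hold no member.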

Additional observations from a re-analysis of the deposited data

Results flagged for a closer look

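Within a group of 4 arrays, a member was listed here when its highest or lowest array stood apart by a larger share of the group's range than Dixon's 95% critical value. This held for 8 of 101 sets of 4 arrays, and chance gives about 1 in 20. In WT room air, replicate 2 was lowest for Adamts4 at -7.95, where it was not well above background, and highest for Adamts6 at -5.16. Replicate 3 was lowest for Adamts7 at -2.89. Replicate 1 was lowest for Adamts8 at 1.79, for Adamts9 at -0.23 and for Timp3 at 5.84. In WT smoke, replicate 4 was highest for Timp2 at 6.90 and for Mmp25 at -5.97, where it was not well above background.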

How the results depend on the processing

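Mmp3 passed in both mutant comparisons under all 21 other settings, and Mmp9 and Mmp16 in 20 of 21, lost under normexp. Timp2 lost its call against WT smoke in 18, Adamts3 and Adamts5 in 10 each and Adamts4 in 2; Mmp14, and Timp2 against room air, lost theirs in 1. The causes were not tested. Normexp left 53 genes in WT smoke against room air (40 higher and 13 lower, where 457 and 506 passed as reported), 26 in mutant against WT smoke and 159 in mutant smoke against room air, with 0 members higher and 1 lower in each mutant comparison. Without a filter on dim probes, which tests more genes, 564 and 687 genes passed in the first and second comparison, and a fit on the 2 groups alone gave 745 in the second. In WT smoke against room air, 1 member was higher (Adamts8) and 1 lower (Adamts5) under the mean of probes, and 1 lower (Mmp8) in the 2-group fit. In mutant against WT smoke, 2 members were higher under the stricter filter and under the mean of probes, and 3 under the slide block and the 2-group fit. Leaving out single arrays gave 554 to 961, 579 to 1143 and 2223 to 3226 genes in the 3 comparisons. The members then called were 0 to 1 higher and 0 to 1 lower in the first, 1 to 2 higher and 2 to 3 lower in the second, and 2 to 5 higher and 3 to 5 lower in the third. The first comparison moved by over 1.5 times without room-air array 2 or 4, or without WT smoke 2, 3 or 4. It then gave 607, 554, 578, 607 and 615 genes, in that order. The second moved by over 1.5 times without WT smoke 1, WT smoke 3 or mutant 4, to 627, 702 and 579. Of 356, 252 and 210 values of named members that had not passed, 7, 11 and 6 passed under another setting.

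The replicate numbers gave no clear pairing of the samples. Over 12 same-numbered pairs of arrays the correlation of deviations ran from -0.0968 to 0.224. Of these, 4 of 12 were over 0.1, and 5 of 12 arrays correlated best with their own number. Replicates 1, 2 and 3 of each group lay on slides 1, 2 and 3, so pairing and slide cannot be told apart for them. With the number as a replicate block, 655, 1101 and 2992 genes passed, with 3 members higher and 2 lower in mutant against WT smoke and 5 higher and 3 lower in mutant smoke against room air.

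These signs turned, all in differences that did not pass except that of Mmp9 in mutant against WT smoke. In WT smoke against room air, normexp gave -0.21 for Adamts3, -0.25 for Adamts4, -0.12 for Mmp9, 0.060 for Timp2 and -0.0084 for Timp4, the mean of probes -0.033 for Mmp9, and the slide block -0.0092 for Adamts1. Leaving out single arrays gave -0.023 to 0.19 for Adamts1, -0.14 to 0.48 for Adamts4, -0.27 to 0.058 for Mmp12, -0.015 to 0.0497 for Mmp9, -0.052 to 0.11 for Timp1, -0.065 to 0.011 for Timp2 and -0.033 to 0.14 for Timp4. In mutant against WT smoke, normexp gave 0.086 for Mmp9 and 0.17 for Timp4, and leaving out single arrays gave -0.0903 to 0.0063 for Adamts5 and -0.085 to 0.028 for Timp4. In mutant smoke against room air it gave -0.065 to 0.11 for Timp4.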
